A study of Mus musculus with 6 samples.

Results

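The comparison set FK866 plus succinate against untreated Control in group 2 innate lymphoid cells (ILC2s) of the mouse colon, profiled by CUT&Tag. It took 4 of the 6 peak lists of the study, 2 Control and 2 FK866 plus succinate libraries, with every peak on chromosomes 1 to 19, X and Y, which came to 193319 of 277107 peaks. The ILC2s of every group had been grown with the survival factors IL-7 and IL-2 and the activating cytokines IL-33 and IL-25, and were sorted from culture before library preparation. The treated cells received FK866 and succinate together and the Control cells neither agent. The sources used here give no strain, age, sex, dose or treatment time. Whether replicate libraries came from separate cultures or animals is not in the labels, so any p reflects the spread among these 4 libraries, which may be technical. The other 2 libraries, of cells given FK866 alone, appear below only as values beside those of the comparison. No arm received succinate alone, so the agents cannot be told apart here.

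FK866 blocks NAMPT, the rate-limiting enzyme of the salvage route that rebuilds NAD from nicotinamide. Succinate is an intermediate of the tricarboxylic acid cycle, is oxidised by succinate dehydrogenase in the respiratory chain, and competes with 2-oxoglutarate at the enzymes that remove methyl groups from histones and DNA. ILC2s carry no antigen receptor, depend on the transcription factors GATA3 and RORα, and release IL-5, IL-13 and amphiregulin when epithelial cytokines reach them. CUT&Tag directs a transposase to chromatin with an antibody and sequences the DNA cut there. The sources used here do not name the target of the antibody, and a peak is therefore read only as enrichment of that unnamed target.

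Among the genes with a peak in both treated libraries and in no Control library were several that interferon induces. The 4 promoters below are shown because they gained a peak and hold GAAA, any 2 bases and GAAA again on 1 of the strands, the core of the element through which interferon acts on its target genes. They come from RefSeq (GRCm38.p6, the same coordinates as mm10), run 5′ to 3′ from 250 bases before the start of the gene to 50 bases after it, and have the match in capitals. The Ifi206 promoter lies at chr1:173491269-173491568 on the minus strand, that of Phf11a at chr14:59297473-59297772 on the minus strand, that of Ncoa7 at chr10:30655818-30656117 on the minus strand and that of Tgtp1 at chr11:48992197-48992496 on the minus strand.
Ifi206: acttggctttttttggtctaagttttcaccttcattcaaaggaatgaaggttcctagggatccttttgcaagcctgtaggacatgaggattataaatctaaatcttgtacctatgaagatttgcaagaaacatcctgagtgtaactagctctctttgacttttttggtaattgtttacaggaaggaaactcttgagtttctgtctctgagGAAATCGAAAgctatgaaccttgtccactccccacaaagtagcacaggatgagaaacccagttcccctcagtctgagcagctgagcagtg
Phf11a: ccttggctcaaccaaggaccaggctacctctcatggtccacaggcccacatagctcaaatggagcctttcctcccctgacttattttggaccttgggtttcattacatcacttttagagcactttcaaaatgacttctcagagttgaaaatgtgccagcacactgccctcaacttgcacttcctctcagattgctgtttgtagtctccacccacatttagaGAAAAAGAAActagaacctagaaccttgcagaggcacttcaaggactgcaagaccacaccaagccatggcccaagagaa
Ncoa7: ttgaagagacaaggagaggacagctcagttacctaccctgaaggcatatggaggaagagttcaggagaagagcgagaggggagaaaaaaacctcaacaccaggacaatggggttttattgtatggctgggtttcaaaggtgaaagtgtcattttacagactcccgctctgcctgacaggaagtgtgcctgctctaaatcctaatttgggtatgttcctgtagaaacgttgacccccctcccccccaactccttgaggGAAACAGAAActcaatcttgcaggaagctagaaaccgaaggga
Tgtp1: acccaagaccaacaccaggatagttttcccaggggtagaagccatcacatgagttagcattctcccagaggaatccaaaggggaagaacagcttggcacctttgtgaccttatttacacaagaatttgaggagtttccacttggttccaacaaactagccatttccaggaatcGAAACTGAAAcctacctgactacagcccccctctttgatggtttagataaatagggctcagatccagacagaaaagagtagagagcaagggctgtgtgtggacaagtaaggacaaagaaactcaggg

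These 4 sequences hold few CpG dinucleotides, 1 in Ifi206, 0 in Phf11a, 4 in Ncoa7 and 1 in Tgtp1. The match ended 30 bases before the start of Ifi206, 19 before that of Phf11a and 67 before that of Tgtp1, and in Ncoa7 it lay past the start. The peaks covered 64 and 259 bp of the 300 bp Ifi206 promoter in FK866 plus succinate libraries 1 and 2, 64 and 136 bp of that of Phf11a, 271 and 127 bp of that of Ncoa7 and 34 and 256 bp of that of Tgtp1. In library 1 the overlaps at Ifi206, Phf11a and Tgtp1 were shorter than the distance from either end of the promoter to the match. The covered lengths alone do not place a match under a peak. The Ncoa7 gene was not called gained over its whole window, and only its promoter was. None of these promoters had a peak in either Control library. Each call rests on a short overlap in at least 1 library: where a peak had to cover at least 200 bp of the promoter, none of the 4 was called gained, and with only peaks of q under 0.05 Tgtp1 was not.

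Promoters that lost their peak were mostly rich in CpG, as are most promoters with peaks. Those of Wnt7a, a secreted Wnt ligand, and Fzd10, a Wnt receptor, are shown as examples, from the same source, with each CpG in capitals. The Wnt7a promoter lies at chr6:91411304-91411603 on the minus strand and the Fzd10 promoter at chr5:128600856-128601155 on the plus strand.
Wnt7a: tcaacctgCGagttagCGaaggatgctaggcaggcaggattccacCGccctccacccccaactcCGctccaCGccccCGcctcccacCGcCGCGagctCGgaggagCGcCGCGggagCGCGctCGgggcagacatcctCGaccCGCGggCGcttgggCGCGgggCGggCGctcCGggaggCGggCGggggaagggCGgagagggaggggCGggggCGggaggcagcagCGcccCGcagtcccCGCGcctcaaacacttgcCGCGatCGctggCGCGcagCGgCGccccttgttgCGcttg
Fzd10: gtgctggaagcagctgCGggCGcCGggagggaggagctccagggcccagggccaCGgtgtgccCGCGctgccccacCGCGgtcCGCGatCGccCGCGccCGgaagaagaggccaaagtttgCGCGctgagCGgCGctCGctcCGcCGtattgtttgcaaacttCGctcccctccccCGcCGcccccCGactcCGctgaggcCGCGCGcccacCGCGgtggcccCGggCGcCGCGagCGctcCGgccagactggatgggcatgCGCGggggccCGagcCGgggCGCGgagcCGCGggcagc

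The Wnt7a sequence holds 42 CpG dinucleotides at a GC content of 76.0%, and the Fzd10 sequence 45 at 77.7%. Peaks covered all 300 bp of both promoters in both Control libraries and no base of either in the FK866 plus succinate libraries.

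The Control lists held 50489 and 41023 peaks and the FK866 plus succinate lists 45446 and 56361, with means of 45756 ± 6693 and 50904 ± 7718 peaks (SD, n = 2). Peaks with a deposited q under 0.05 numbered 27734 ± 756 and 26020 ± 1178. The files hold no read counts. A background of 1.85 and 2.14 fragments per position in Control and 1.74 and 1.25 in FK866 plus succinate was inferred from the steps in the deposited fold values. FK866 plus succinate library 2 thus had the lowest inferred background, the most peaks and the smallest median peak width, 528 bp against 616 to 723 bp in the others. All 8 ILC2 markers checked, Gata3, Rora, Il1rl1, Il17rb, Il5, Il13, Klrg1 and Il7r, had a peak in all 4 libraries. Of the markers of other cells, Ncr1 and Ifng of natural killer cells and ILC1s, Il23r and Il17a of ILC3s, Cd8a of T cells, Ms4a1 of B cells and Adgre1 and Cpa3 of macrophages and mast cells had a peak in none. All 5 epithelial and stromal markers had peaks in all 4 libraries, covering 13.4 and 9.63 kb in Control and 11.2 and 14.2 kb in FK866 plus succinate.

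A gene was called gained where a peak touched its span, or the 2 kb on either side, in both treated libraries and in no Control library, and lost in the reverse case. Of 15196 protein-coding genes with a peak in at least 2 of the 4 libraries, 73 were gained (0.480%) and 112 were lost (0.737%). A further 14240 genes had a peak in all 4 libraries. The covered length of a gene, the number of bases under peaks in that window, was compared between the groups with limma on log2(bp + 500). No gene passed an adjusted p of 0.05 (0%), the smallest adjusted p being 0.601. Of the 15196 genes, 6495 were wider (42.7%) and 8701 narrower in FK866 plus succinate. Without adjustment, 475 genes were wider (3.13%) and 737 narrower (4.85%) at p under 0.05. The single-gene values that follow are therefore descriptions, and none of the differences passed the test. Covered length measures the presence and width of peaks, not their height, and each difference is on the log2(bp + 500) scale, which understates the change of genes with short coverage.

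Ifi206 was the gained gene with the strongest peaks. It is a member of the Ifi200 family of interferon-inducible nuclear proteins and spans chr1:173468485-173491318. Its covered length was 1403 and 1259 bp in the FK866 plus succinate libraries, 0 and 0 bp in Control, and 0 and 0 bp in the libraries with FK866 alone. The mean of 1331 ± 102 bp (SD, n = 2) lay 1.87 ± 0.16 (SE) above Control on the log2 scale, with adjusted p = 0.601 from limma. The main peak began near the start of the gene in both libraries and ran about 1 kb into it. In library 1 it began 14 bp before the start and so did not reach the match in capitals above, whereas in library 2 it began 209 bp before it.

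The other gained genes of this kind were named after their values were seen. Trim6 codes for a ubiquitin ligase that takes part in interferon signalling, and peaks covered 741 and 929 bp of its window in FK866 plus succinate. Tgtp1 codes for an interferon-inducible GTPase, and its covered length was 644 and 1261 bp. Phf11a codes for a PHD finger protein, and its covered length was 273 and 884 bp. All 3 had 0 bp in both Control libraries, as the rule for gained genes requires. The smallest FK866 plus succinate value among them was the 273 bp of Phf11a in library 1. With FK866 alone, peaks covered 0 and 287 bp of Tgtp1 and 0 bp of Trim6 and Phf11a in both libraries. The Ifi200 genes and Tgtp1 have near-identical neighbouring copies, and how reads that match several copies were placed is not known here, so these assignments are uncertain. Whether the same limit applies to other genes named here, such as Phf11a, Trim30a and Oas1a, was not checked.

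Several interferon-stimulated genes that already had peaks in Control had wider ones in FK866 plus succinate. Trim30a had the smallest p of all genes that were wider. It is an interferon-inducible member of the TRIM family at chr7:104409025-104465193, and its covered length was 1541 and 1560 bp in Control against 3817 and 3970 bp in FK866 plus succinate. The means were 1550 ± 13.4 and 3894 ± 108 bp (SD, n = 2), a difference of 1.10 ± 0.07 (SE) with adjusted p = 0.601 from limma. The libraries with FK866 alone had 1946 and 1743 bp, nearer to Control.

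Rtp4, an interferon-inducible protein first known as a transporter of receptors, had 271 and 440 bp in Control against 2033 and 2041 bp in FK866 plus succinate. The difference was 1.58 ± 0.14 (SE) with adjusted p = 0.601 from limma. Ifit1, which binds viral RNA with an unmethylated cap, had 311 and 398 bp in Control against 1448 and 2082 bp. The difference was 1.39 ± 0.19 (SE) with the same adjusted p. In both genes the lowest FK866 plus succinate value was several times the highest Control value. With FK866 alone the covered length was 591 and 0 bp at Rtp4 and 326 and 408 bp at Ifit1.

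**Figure D1:**
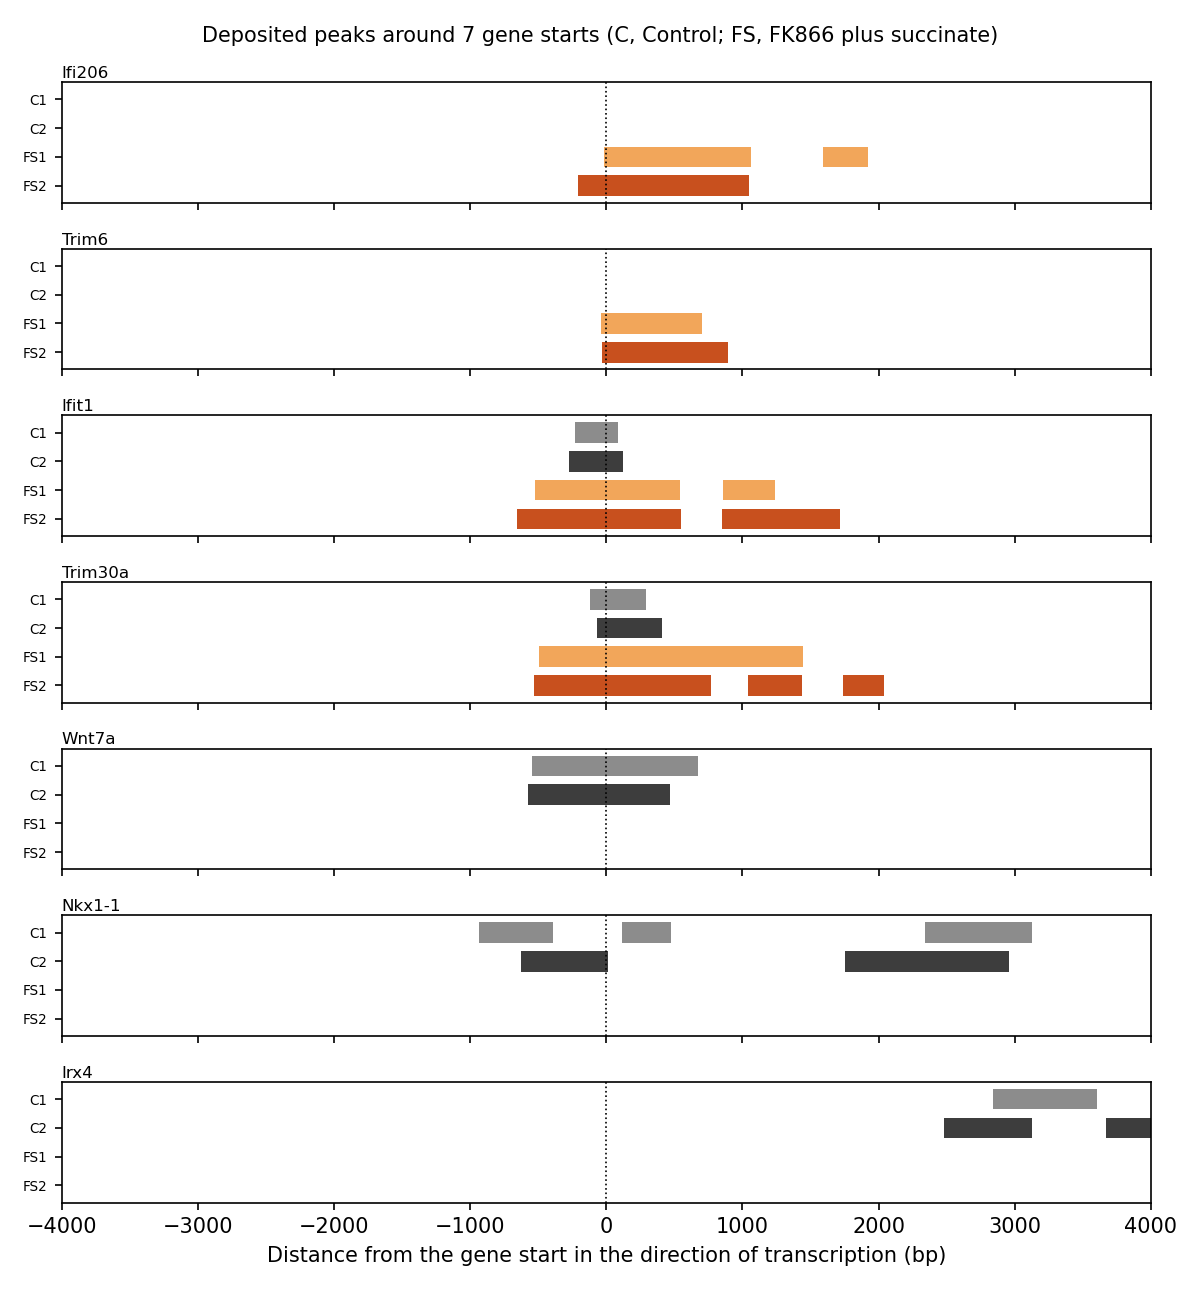
Deposited peaks within 4 kb of the start of 7 genes, 1 row per library (C, Control; FS, FK866 plus succinate), with distance from the start in bp in the direction of transcription and a dotted line at the start. Ifi206 and Trim6 have peaks in the FK866 plus succinate libraries only, Ifit1 and Trim30a have longer stretches under peaks there than in Control, and Wnt7a, Nkx1-1 and Irx4 have peaks in the Control libraries only.

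The list of 30 interferon-stimulated genes had 25 members with enough coverage to compare, and all 25 had a peak in all 4 libraries. Of these, 17 were wider and 8 narrower in FK866 plus succinate, with a median difference of 0.115 against -0.029 over all genes compared. Trim30a, Ifit1, Oas3, Rsad2, Oas1a, Stat2, Oasl2 and Ifih1 were wider at p under 0.05 and no member was narrower at that level, where 3.13% of all genes were wider. In 15 of the 25 both FK866 plus succinate libraries lay above both Control libraries, and in 6 both lay below; over all genes compared these shares were 13.6% above and 24.7% below. No member passed the adjusted threshold. All gene lists, this one included, were chosen with earlier results of these data known, so their shares are descriptions.

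Genes that sense or answer viral RNA were among the wider members. Oas3, an oligoadenylate synthase, had 1668 and 1600 bp in Control and 2496 and 2438 bp in FK866 plus succinate, and Oas1a of the same family 572 and 326 bp against 1284 and 1093 bp. Ifih1, the RNA sensor MDA5, had 1764 and 1699 bp against 2572 and 2120 bp. The groups did not overlap at any of the 3 genes, with adjusted p from limma of 0.601, 0.601 and 0.611. Rsad2, which codes for the antiviral protein viperin, had 882 and 626 bp against 1483 and 1566 bp (adjusted p = 0.601 from limma).

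The transcription factors of the pathway were mixed. Stat2 had 2551 and 1876 bp in Control and 3255 and 3810 bp in FK866 plus succinate (adjusted p = 0.609 from limma). Irf9, which binds DNA together with it, had a difference of 0.11 ± 0.08 (SE), with adjusted p = 0.790 from limma. Irf1 and Irf7, which also act at these promoters, had differences of -0.00 ± 0.11 and -0.07 ± 0.08 (SE).

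Other members went the opposite way. Isg15, a ubiquitin-like modifier, had 1058 and 1078 bp in Control and 828 and 874 bp in FK866 plus succinate (adjusted p = 0.671 from limma). The GTPases Gbp2, Gbp3 and Igtp and the genes Ifi35 and Irf7 also had both treated libraries below both Control libraries, with differences between -0.14 and -0.07. Oasl1 gained a peak at its promoter, with 277 and 197 of 300 bp covered in FK866 plus succinate and 0 in both Control libraries, while the covered length of its whole window was 2333 and 1794 bp in Control and 1855 and 1673 bp in FK866 plus succinate.

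The Ifi200 genes had few peaks, and 5 of the 12 in the gene table could be compared. Ifi203 had 778 and 861 bp in Control and 2379 and 1563 bp in FK866 plus succinate, a difference of 0.89 ± 0.20 (SE). Ifi209 had 274 and 547 bp against 1504 and 1554 bp, a difference of 1.17 ± 0.19 (SE). With Ifi206 these made 3 of 5 that were wider at p under 0.05 (adjusted p = 0.601 from limma for each), where 3.13% of all genes were. Both treated libraries lay above both Control libraries in 4 of the 5 and below them in 1. Over all genes compared these shares were 13.6% and 24.7%, and Ifi206 lay above by the rule that called it gained. Aim2, which codes for a sensor of DNA in the cytosol, went the other way, with 4112 and 2172 bp in Control and 1755 and 1963 bp in FK866 plus succinate. Another 6 of the 12, Ifi202b, Ifi204, Ifi205, Ifi207, Ifi208 and Ifi211, had no peak in any of the 4 libraries.

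**Figure D2:**
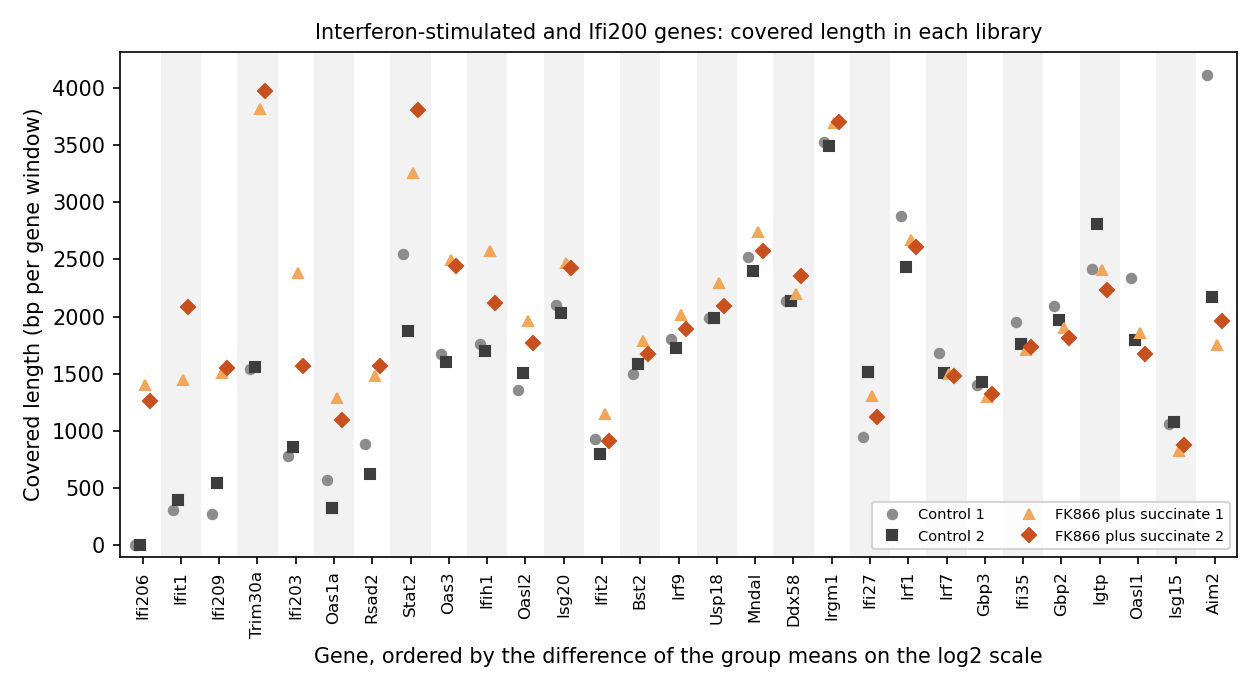
Covered length in bp (vertical axis) of interferon-stimulated and Ifi200 genes that could be compared, 1 point per library, ordered by the difference between the group means. The orange FK866 plus succinate points lie above the grey Control points for genes on the left such as Ifi206, Ifit1 and Trim30a, and below them for Isg15 on the right.

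Lost genes included regulators of embryonic development, 3 on the developmental list and 1 on the Hox list. Nkx1-1, a homeobox gene at chr5:33430734-33434090, had the smallest p of the narrower genes, with 1696 and 1845 bp in Control and 0 bp in both FK866 plus succinate libraries. The mean of 1770 ± 105 bp (SD, n = 2) in Control gave a difference of -2.18 ± 0.14 (SE) with adjusted p = 0.601 from limma. Irx4, a homeobox gene of the heart ventricle, had 1271 and 1752 bp in Control and 0 bp in both treated libraries, a difference of -2.0 ± 0.20 (SE). Wnt7a had 1218 and 1044 bp in Control and 0 bp in both treated libraries, a difference of -1.70 ± 0.18 (SE). The libraries with FK866 alone had peaks at all 3 genes, covering 1753 and 471 bp of Nkx1-1, 1043 and 732 bp of Irx4 and 813 and 1083 bp of Wnt7a.

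Of 26 listed developmental regulators, 22 could be compared, and 3 of them were lost, where 0.737% of all genes with a peak in at least 2 libraries were. They were Wnt7a, Foxa2, a forkhead factor of endoderm, and the homeobox gene Barx2. Foxa2 had 762 and 939 bp in Control and Barx2 846 and 560 bp, both with 0 bp in the FK866 plus succinate libraries. A total of 19 of the 22 were narrower, 9 of them at p under 0.05, and 0 were wider at that level; 4.85% of all genes were narrower at that level. Both treated libraries lay below both Control libraries in 12 of the 22 and above them in 0, where 24.7% of all genes lay below and 13.6% above. The 3 lost genes could be compared only through their Control peaks. They lay below by the rule that called them lost, and all 3 are among the 9. The share below was also high on lists with other roles, at 7 of 15 housekeeping genes (46.7%) and 9 of 20 genes of NAD synthesis and recycling, beside the 54.5% here. The median difference of the developmental list was -0.167. This list too was chosen with earlier results of these data known.

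Members that kept peaks were narrower to different degrees. Lhx2, a LIM homeobox gene, had 4811 and 4770 bp in Control and 3425 and 3404 bp in FK866 plus succinate (adjusted p = 0.601 from limma). Six2, a homeobox gene of kidney progenitors, had 2323 and 2260 bp against 1165 and 1421 bp (adjusted p = 0.601 from limma). Sox9, a regulator of cartilage and gut stem cells, had 1549 and 1572 bp against 883 and 1223 bp (adjusted p = 0.617 from limma). Pax6, in contrast, had a difference of 0.01 ± 0.09 (SE).

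The Hox genes pattern the body axis. Of 21 compared, 15 were narrower, as were 8701 of all 15196 genes, and the median difference was -0.142. The 1 narrower at p under 0.05, a level that 4.85% of all genes reached in that direction, was Hoxc8, the only lost member. It had 657 and 576 bp in Control, 0 bp in both FK866 plus succinate libraries and 477 and 303 bp with FK866 alone. Hoxc8 lay below Control by the rule that called it lost. In 6 of the 21 (28.6%) both treated libraries lay below both Control libraries and in 2 (9.52%) above, shares close to the 24.7% and 13.6% over all genes.

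**Figure D3:**
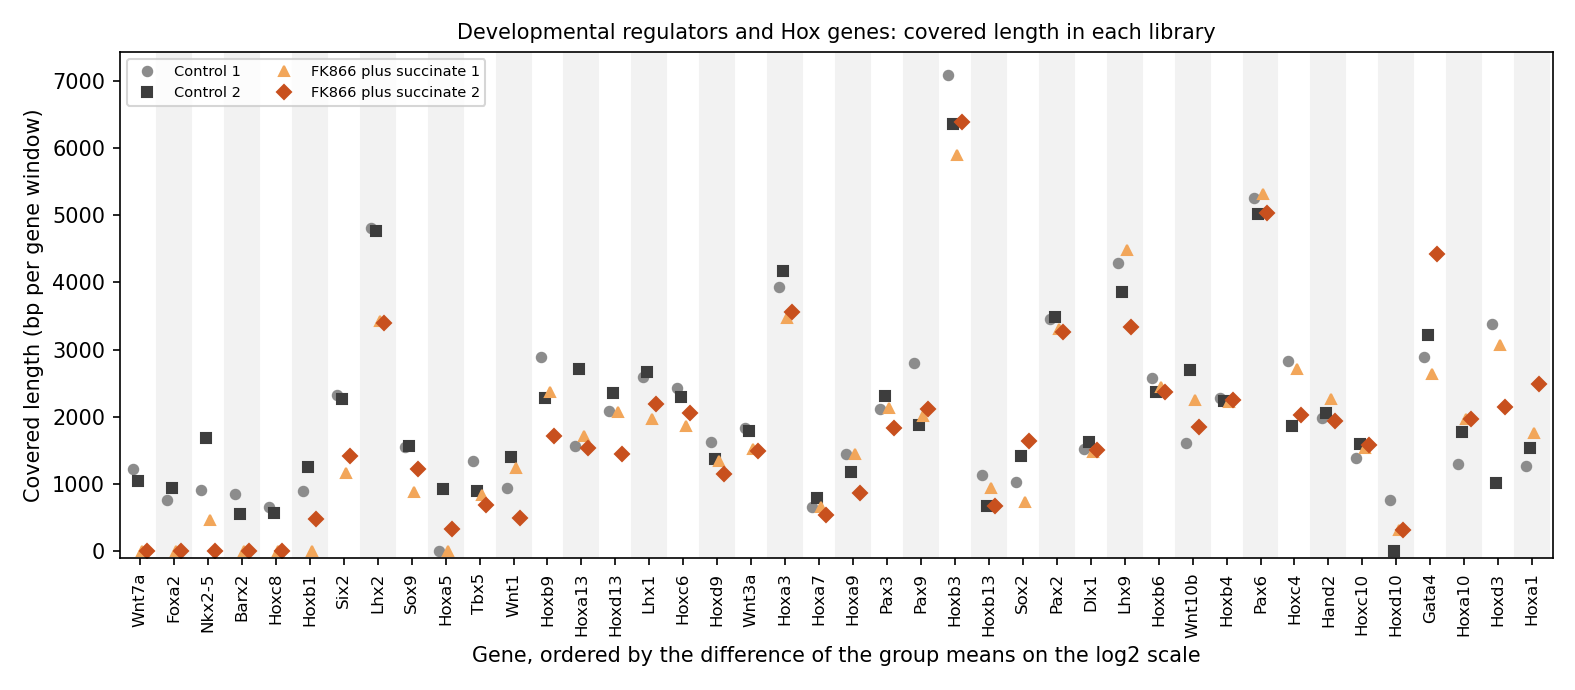
Covered length in bp (vertical axis) of listed developmental regulators and Hox genes that could be compared, 1 point per library, ordered by the difference between the group means. On the left, Wnt7a, Foxa2, Barx2 and Hoxc8 have points at 0 for both FK866 plus succinate libraries, and most other genes have orange and grey points close together.

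Outside the lists, lost genes were grouped by function after their values were seen, so the group sizes are a description. How common each group is among all genes compared was not counted. Of the 112, at least 15 code for transcription factors, among them Emx1, Lmx1a, Erg and Tcf15. A set of 4, Wnt7a, Wnt8b, Fzd10 and Pygo1, belong to Wnt signalling, and all 4 had peaks in both libraries with FK866 alone. A further 12 serve nerve cells, such as Snap25 of the synaptic vesicle machinery, the dopamine transporter Slc6a3 and the neurotrophin receptor Ntrk3. Ntrk3 had 1491 and 807 bp in Control against 0 bp in both treated libraries. Over all 112 lost genes, 37 had a peak in both libraries with FK866 alone, 38 in 1 and 37 in neither.

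Other lost genes had varied roles. Pcsk1n, an inhibitor of a prohormone convertase, had 1415 and 1344 bp in Control, 0 bp in both treated libraries and 668 and 534 bp with FK866 alone. Fmn2, an actin nucleator, had 1048 and 1157 bp in Control and 0 bp in the 4 libraries with FK866, with or without succinate. Prf1, the pore-forming perforin of killer cells, had 598 and 1149 bp in Control and 0 bp in both treated libraries, and Lpl, lipoprotein lipase, 547 and 585 bp. The remaining lost genes among the 15 with the strongest peaks were Tex12, Zfp385b, Crtac1, Adcy8, Banf2, Gm5709, Csrp3, Fam181b, Tmem28, Gja3, Egr4 and Barx2. Their Control coverage ran from the 103 bp of Tex12 to the 1699 bp of Crtac1 in Control library 1.

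Some genes kept a peak but lost much of its width. Tubb3, the tubulin of neurons, had 2382 and 2305 bp in Control and 1108 and 986 bp in FK866 plus succinate, a difference of -0.88 ± 0.08 (SE) with adjusted p = 0.601 from limma. Alox15, a lipoxygenase that makes lipid mediators, had 1643 and 1466 bp against 273 and 419 bp, a difference of -1.28 ± 0.14 (SE) with adjusted p = 0.601 from limma. Trim9, a ubiquitin ligase of the brain, had 1962 and 1713 bp against 773 and 720 bp. Mettl24 and Efna2, an ephrin, completed the narrower genes of smallest p together with Nkx1-1, Pcsk1n, Irx4, Fmn2 and Wnt7a. The wider genes of smallest p outside the interferon group were Lyrm7, an assembly factor of respiratory complex III, Dlg1, Chrna9, the iron-sensing Fbxl5, Pgm1, which was narrower instead with stricter peak thresholds, and Pstpip2. Lyrm7 had 1330 and 1278 bp in Control and 2513 and 2594 bp in FK866 plus succinate.

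The remaining genes among the 15 gained with the strongest peaks belonged to none of the lists. Xdh, xanthine dehydrogenase of purine breakdown, had 0 bp in Control and 782 and 975 bp in FK866 plus succinate. Slc26a9, an anion transporter of epithelia, had 679 and 820 bp, and Lpar4, a receptor for lysophosphatidic acid, 680 and 597 bp. Npsr1, Calhm1, Gm40862, Retn, Tac2, Tmem204, Adam1b and Ccdc39 completed the 15 strongest, with values from the 91 bp of Calhm1 to the 1254 bp of Adam1b, both in library 2. Over all 73 gained genes, 43 had no peak with FK866 alone, 23 had 1 in 1 library and 7 in both. Per-library coverage of gained genes ranged from 23 to 1836 bp with a median of 443 bp, and that of lost genes from 57 to 1971 bp with a median of 590 bp. Most of these genes rested on weak peaks. The lower of the 2 libraries' highest -log10 p percentiles, each within its own list, had a median of 19.5 for gained and 33.6 for lost genes. It exceeded 50 in 4 of the 73 gained and 14 of the 112 lost genes.

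The 300 bp promoters of RefSeq were then taken on their own, a measure added after the gene values had been seen. Of 12179 promoters with a peak in at least 2 of the 4 libraries, 130 were lost (1.07%) and 32 were gained (0.263%). Lost promoters had a median of 22.0 CpG dinucleotides and 73.8% of them had more than 10, close to the median of 22.0 and above 10 in 87.0% for promoters with a peak in all 4 libraries. Gained promoters had a median of 4.5, and 1 of the 32, that of Rem1 with 24, had more than 10. Promoters with a peak in 1 of the 4 libraries had a median of 7, those with a peak in 2 a median of 10 and those with no peak a median of 3. The GC content had medians of 65.5% in lost and 51.2% in gained promoters.

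The interferon motif, GAAA repeated after any 2 bases and searched on both strands, stood in 4 of the 32 gained promoters (12.5%), those of Ifi206, Phf11a, Ncoa7 and Tgtp1, and in 2 of the 130 lost promoters (1.54%). Of the 32, 5 kept the call where a peak had to cover at least 200 bp, and these 4 were not among them. It stood in 3.35% of all 21262 promoters and in 2.87% of those with a peak in all 4 libraries. AGATAA, a form of the motif bound by GATA factors, also searched on both strands, stood in 6.25% of gained and 6.92% of lost promoters. It stood in 5.28% of promoters with a peak in all 4 libraries, 15.9% of those with no peak and 9.65% of all promoters. A match describes the letters of the window only, and these shares were not tested.

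**Figure D4:**
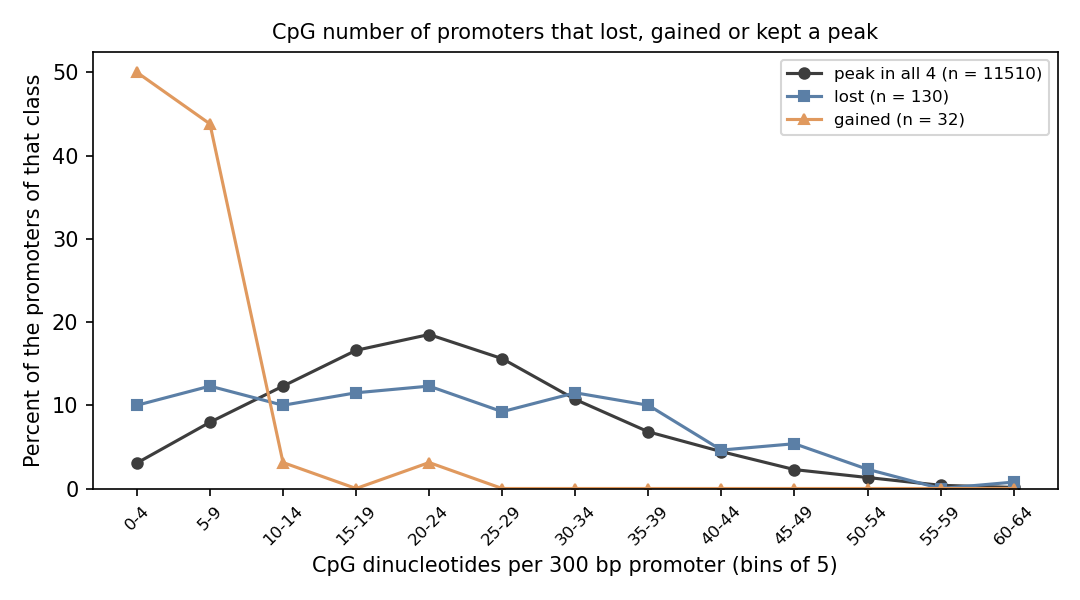
Share of promoters in percent (vertical axis) by number of CpG dinucleotides per 300 bp in bins of 5 (horizontal axis) for promoters that were lost, gained or had a peak in all 4 libraries. Gained promoters are concentrated at low CpG numbers, with 50% in the lowest bin, while lost promoters spread over the whole range.

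Promoters of the same gene families were among those lost, and they are named here after their values were seen. Besides Wnt7a and Fzd10, those of the Wnt ligands Wnt4 and Wnt9b and the receptor Fzd1 were lost, with 300 and 208, 129 and 101 and 300 and 289 bp covered in Control. So were those of the homeobox genes Hoxb1, Hoxa11, Isl1, Six2 and Tlx3 and of the TGF-beta family ligand Nodal. At Six2 and Isl1 peaks covered all 300 bp in both Control libraries. How common these families are among all promoters was not counted. Of listed promoters with a peak in at least 2 libraries, 3 of 15 developmental and 1 of 8 Hox promoters were lost, where 1.07% of all such promoters were. A promoter of Bcl11b, a transcription factor of T cells and ILC2s, was covered by 54 and 62 bp in Control and by 0 bp in FK866 plus succinate, while the whole Bcl11b window had 16791 and 16830 bp against 17610 and 14067 bp.

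Of the promoters of listed interferon-stimulated genes, 28 had a peak and 1 was gained. Other gained promoters are named here after their values were seen. The promoter of Ifitm1, which blocks viral entry, was covered by 300 and 175 bp in FK866 plus succinate, that of Btn2a2, a butyrophilin, by 300 and 62 bp, and that of P2rx7, the receptor for extracellular ATP, by 300 and 115 bp. Each had 0 bp in both Control libraries. The overlap was short elsewhere, as at Parp16 with 5 bp in each treated library and Knstrn with 99 and 10 bp.

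Region by region, overlapping peaks of the 4 lists merged into 91576 regions. A peak in 1 library alone made up 48232 of them (52.7%), and 23635 (25.8%) had a peak in all 4. Of 43344 regions with a peak in at least 2 libraries, 2113 were lost (4.87%) and 2455 were gained (5.66%). With limma on the covered length of regions, 0 passed an adjusted p of 0.05 (0%), the smallest being 0.183, while 2859 were wider (6.60%) and 3964 narrower (9.15%) at unadjusted p under 0.05. When regions covered in 1 library were kept in the fit, 79 of 91576 passed, 70 of them narrower. Most lost and gained regions were weak: the weaker of their 2 peaks had a median -log10 p at percentile 20.2 of its own list for lost and 21.2 for gained regions, and lay above percentile 50 in 4.5% and 4.44%.

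Lost regions lay within 2 kb of a gene end in 20.6%, elsewhere inside a gene in 51.3% and outside genes in 28.1%. Gained regions were split 14.9%, 55.7% and 29.4%, and regions with a peak in all 4 libraries 52.3%, 28.2% and 19.5%. Median widths were 630 bp for lost and 600 bp for gained regions, against 1493 bp for those with a peak in all 4.

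The 10 strongest lost regions lay at or near genes of varied roles. The strongest lay at chr5:100500693-100501313 at an end of Lin54, a DNA-binding subunit of a cell cycle complex, with 621 and 522 bp in Control. A site of 453 bp inside Ikzf1, the lymphoid factor Ikaros, at chr11:11692540-11692992 had 392 and 438 bp in Control. Another at chr9:48835706-48836527, at an end of Zbtb16, which codes for the factor PLZF of ILC precursors, had 783 and 805 bp. A site inside Arhgap45 at chr10:80018676-80019314 had 605 and 633 bp. All 4 had 0 bp in both FK866 plus succinate libraries and peaks in both libraries with FK866 alone. The other 6 lay at or nearest to Btbd19, Ggt7, Ddx21, Ccdc177, Emb and Krt18.

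Among the strongest gained regions were those at the starts of Oasl1, chr5:114923013-114923923 with 748 and 831 bp, and of Ifi206, chr1:173490258-173491527 with 1075 and 1259 bp. A region of 605 bp at chr9:7833351-7833955 inside Birc2, an inhibitor of cell death, had 539 and 568 bp in FK866 plus succinate and 419 and 458 bp with FK866 alone. A region of 337 bp inside Cry1, a repressor of the circadian clock, at chr10:85161871-85162207 had 266 and 307 bp. All 4 had 0 bp in Control.

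Most genes that define ILC2s had a peak in all 4 libraries, with 21 of 22 transcription factors, 14 of 20 cytokines and effectors and all 26 receptors. Zbtb16 and Il9 each had 0 bp in FK866 plus succinate library 1, and 5 cytokine and effector genes had no peak in any of the 4 libraries. No member of the lists of ILC2 transcription factors (22 compared), cytokines and effectors (15) or receptors (26) was lost or gained, and the median differences of these lists were -0.052, -0.034 and 0.006. Gata3 had 11191 and 11895 bp in Control and 10929 and 9966 bp in FK866 plus succinate, a difference of -0.14 ± 0.10 (SE). Il5 had 3347 and 3417 bp against 3412 and 3224 bp, a difference of -0.02 ± 0.08 (SE), and Il13 3906 and 3806 bp against 3567 and 2654 bp, a difference of -0.28 ± 0.16 (SE). Il1rl1, the receptor for IL-33, and Il17rb, part of that for IL-25, differed by 0.01 ± 0.10 and 0.03 ± 0.08 (SE).

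Zbtb16, on the list of ILC2 transcription factors, had 1270 and 805 bp in Control and 0 and 433 bp in FK866 plus succinate, a difference of -1.15 ± 0.40 (SE) with adjusted p = 0.626 from limma. Eomes, the T-box factor of natural killer cells, had 2820 and 2608 bp against 2080 and 1877 bp, a difference of -0.38 ± 0.09 (SE) with adjusted p = 0.601 from limma. Both treated libraries lay below both Control libraries at either gene, as they did in 24.7% of all genes compared. Tbx21, the T-box factor of ILC1s, had 2806 and 2359 bp against 2321 and 3243 bp, so its groups did overlap.

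Genes of the pathways the agents act on were neither lost nor gained. Nampt, the target of FK866, had 2123 and 2717 bp in Control and 2008 and 3653 bp in FK866 plus succinate, a difference of 0.15 ± 0.30 (SE). Of 20 genes of NAD synthesis and recycling compared, 9 were wider and 11 narrower, where 42.7% of all genes were wider. Both treated libraries lay below both Control libraries in 9 and above them in 3, where 24.7% of all genes lay below and 13.6% above. The 1 narrower at p under 0.05, a level that 4.85% of all genes reached in that direction, was Haao, an enzyme of NAD synthesis from tryptophan. It had 3892 and 4000 bp in Control and 2845 and 3028 bp in FK866 plus succinate. The 4 subunits of succinate dehydrogenase, Sdha, Sdhb, Sdhc and Sdhd, had differences of 0.06 ± 0.12, -0.04 ± 0.12, 0.37 ± 0.36 and -0.02 ± 0.09 (SE). The succinate receptor gene Sucnr1 had no peak in any of the 4 libraries. Of 24 enzymes that use 2-oxoglutarate to act on chromatin or RNA, 12 were wider and 12 narrower, with a median difference of -0.004 and none at p under 0.05. The median was -0.098 for 21 genes of the tricarboxylic acid cycle, 0.057 for 18 that handle succinate and -0.035 for 14 of the HIF pathway.

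Library by library, the separation of the groups was small. The base-pair Jaccard index, the share of all covered bases that 2 libraries have in common, was 0.585 between the Control libraries, 0.518 between the FK866 plus succinate libraries and 0.502 to 0.584 between groups. The mean within groups exceeded that between groups by 0.0118. The labelled pairing gave the highest of the 3 values, with an exact one-sided permutation p of 0.333 over the 3 ways of putting the 4 libraries into pairs, the smallest that 4 libraries allow.

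The summed counts of lost and gained features were also highest for the labelled pairing, again at the smallest exact p of 0.333. They were 4568 regions against 3842 and 4318 for the other pairings, 185 genes against 99 and 177, and 162 promoters against 90 and 95. With each list shortened to the same number of peaks of smallest p, 214 genes were lost or gained against 104 and 105, and 3784 regions against 3027 and 3087. With only peaks of q under 0.05, 228 genes were lost and 41 gained, and 8 of the 73 gained genes remained, Ifi206, Trim6, Phf11a, Xdh, Slc26a9, Lpar4, Npsr1 and Calhm1. That setting kept 47 of the 112 lost genes, Wnt7a, Nkx1-1, Foxa2 and Barx2 among them. With the higher-scoring 50% of each list, the labelled pairing was no longer the highest for regions, with 1122 against 625 and 1130 (exact permutation p = 0.667). The part of the lower inferred depth of FK866 plus succinate library 2 in these counts was not tested.

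**Figure D5:**
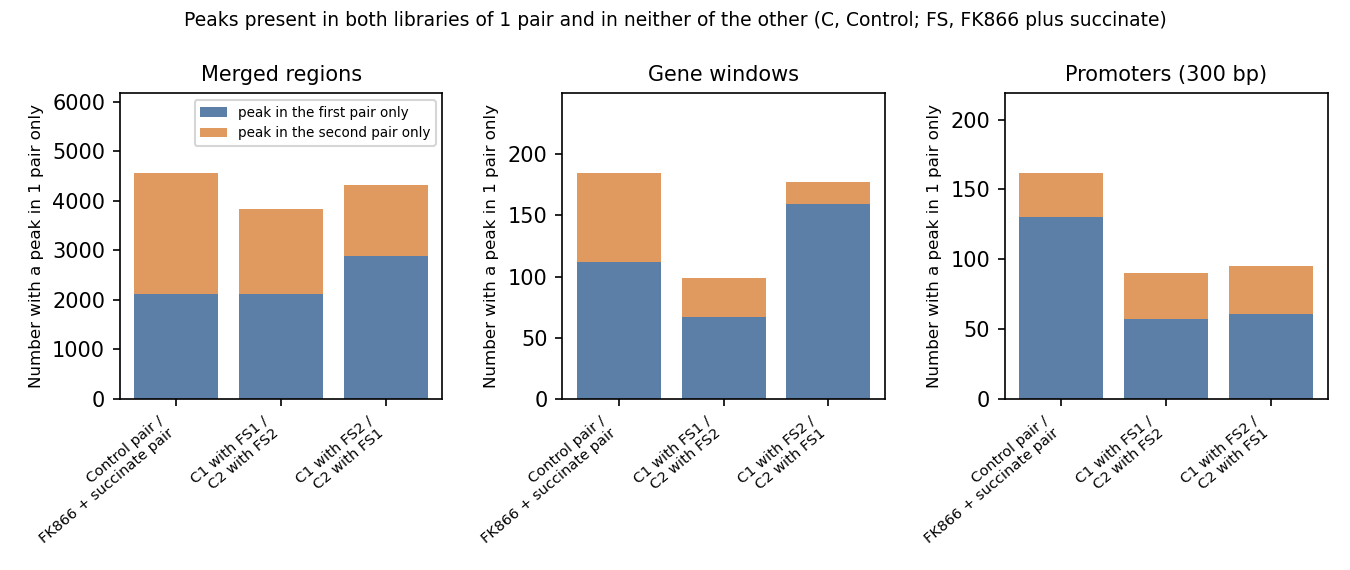
Number of regions, gene windows and promoters (vertical axes) with a peak in both libraries of 1 pair and in neither of the other, for the labelled groups (left bar of each panel) and the other pairings of the same 4 libraries. C is Control and FS is FK866 plus succinate; the left bar is the tallest in each panel, with 162 against 90 and 95 for promoters.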

How the data were processed

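CUT&Tag was measured in 6 libraries, of which the 4 of Control and FK866 plus succinate were compared, grouped by the labels. Per the submitters' processing notes, cutadapt 1.9, Bowtie2 2.5.0 and mm10 were used; which antibody and peak caller were used is not stated in those notes or the files. The authors deposited 1 narrowPeak list per library: a score, a fold ratio over background, a -log10 p and a -log10 q per peak. The deposited score is 10 times the -log10 p for at least 99.88% of peaks, and every list reaches down to a p just under 0.05. The deposited ratio and -log10 values depend on the depth of each library, so they were ranked only within a list. Depth was inferred from steps in the fold values (tolerance 0.002); a Poisson model gave the deposited p (within 0.02 on the -log10 scale) for 97.1% to 98.9% of the peaks on a step, which were 29.6% to 44.4% of the 4 lists. No intervals can be given without read counts.

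Peaks on the 21 chromosomes were used; 49 to 55 per list on other sequences were left out. Gene spans of 21883 protein-coding genes came from a RefSeq table of GRCm38.p6, without strand or exons; a peak in overlapping windows counts for each gene. Promoters (21262, of 17491 genes) came from RefSeq, GRCm38.p6. Covered lengths were computed with Python 3.11.15 and tested with limma 3.58.1 (lmFit, eBayes with trend; R 4.3.3) on log2(bp + 500) for features covered in at least 2 libraries, with Benjamini-Hochberg adjustment over all of them; the fit was tested on simulated data. Summed counts were tested by exact permutation over the 3 pairings. Deviations of same-numbered libraries from their own group means correlated at -0.140 over genes, so the numbers were not treated as pairs.

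Named were the 15 lost and 15 gained genes with the strongest peaks (the lower of the 2 libraries' highest -log10 p percentile), every lost or gained list member, the 10 wider and 10 narrower genes of smallest p, a panel of ILC2 and metabolic genes, and the 10 strongest and 3 widest regions of each kind. The 29 lists hold 549 genes, 543 of them in the table; in 24 lists no gene was lost or gained. Members and lists were chosen with earlier results of these data known. Alternatives changed the peak threshold, list length, overlap, window, pseudocount, filter, scaling, fit and libraries. A few named genes are not reported here.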

Additional observations from a re-analysis of the deposited data

How the results depend on the processing

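With only peaks of q under 0.05, lost and gained regions numbered 1391 and 502, 1893 in all, genes 228 and 41, and gained promoters 20. With the higher-scoring 50% of each list, they numbered 371 and 751 regions, 1122 in all against 625 and 1130 for the other pairings, so the labelled pairing was no longer the highest there (exact permutation p = 0.667). With lists of equal length, gained regions numbered 1520. These settings kept 47, 6 and 91 of the 112 lost genes and 8, 4 and 31 of the 73 gained genes. Leaving out 1 library loosens the rule by construction. Counts then ranged from 3948 to 15228 for lost, 3758 to 21588 for gained and 12782 to 25536 for all regions, from 184 to 333, 130 to 342 and 433 to 544 for genes, and from 222 to 381, 78 to 194 and 340 to 459 for promoters. No gene passed an adjusted p of 0.05 in limma under any alternative run. The same held for regions except with those covered in 1 library included, where 79 of 91576 passed, 70 of them narrower and 9 wider (smallest adjusted p = 0.000687); the cause was not tested. With the replicate block, 0 genes (smallest adjusted p = 0.835) and 0 regions (0.290) passed, and no other call changed; with the crossed replicate block, 0 of either. Among the named genes tested, the sign of the difference turned under some alternative for Pgm1 and for panel genes such as Il5, Il1rl1, Il17rb, Nampt, Tbx21 and the succinate dehydrogenase subunits. The promoter counts, the crossed block and the list medians were chosen after seeing the data. Without read counts, depth could not be equalised between libraries.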

Other observations

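The strongest gained region of all was 256 bp wide at chr16:98107511-98107766, outside genes, with peaks of 256 and 255 bp at percentile 100 of both FK866 plus succinate lists, 0 bp in both Control libraries, and 0 and 256 bp with FK866 alone. Another, of 387 bp at chr11:121982159-121982545, had 365 and 382 bp in FK866 plus succinate, 0 bp in both Control libraries and 0 and 351 bp with FK866 alone. Among the autosomes, the share of regions lost ran from 4.03% on chromosome 14 to 5.60% on chromosome 19, and chromosome 19 also had the highest share gained, 7.19%. On chromosome X, 3.71% of regions were lost and 2.86% gained.

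Of the chemokine receptors, Ccr9, which guides lymphocytes to the small intestine, had 584 and 337 bp in Control and 1347 and 3380 bp in FK866 plus succinate, and 844 and 0 bp with FK866 alone. Ccr2 had 2733 and 2719 bp in Control against 2082 and 1926 bp. The groups did not overlap at either gene. Over all genes compared, both treated libraries lay above both Control libraries in 13.6% and below in 24.7%. The adjusted p from limma was 0.609 for Ccr9 and 0.601 for Ccr2. Nfkb1, a subunit of NF-kB, had 18152 and 18534 bp in Control and 14231 and 14352 bp in FK866 plus succinate (adjusted p = 0.601 from limma).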
